A study of Mus musculus with 10 samples.

Results

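Keratins and claudins are structural proteins by which epithelial cells are recognized, and 10 of their genes that are typical of simple epithelia and of glandular tumors were followed here through 10 mouse lung tumors. The members were the 5 keratin genes Krt7, Krt8, Krt18, Krt19 and Krt20 and the 5 claudin genes Cldn2, Cldn3, Cldn4, Cldn7 and Cldn18. They were taken as rows of the count table whose gene symbol equals one of these names. The list was drawn up with earlier results of these data known. All 10 were found among the 39017 genes of the table, and all 10 were among the 16216 genes with enough counts to be tested.

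Keratins assemble as pairs of a type I and a type II chain into the intermediate filaments of the epithelial cell. Krt8 and Krt7 are type II chains, Krt18, Krt19 and Krt20 are type I chains, and the pair Krt8 and Krt18 is the basic filament of simple, single-layered epithelia. Claudins span the membrane at tight junctions and set how tightly the space between neighboring cells is closed and which ions may pass. In the lung, Cldn18 is the claudin typical of the alveolus, Cldn3 and Cldn4 are made by alveolar type 2 cells, and Krt8 and Cldn4 are known to be raised in cells on the way from the alveolar type 2 to the type 1 state after injury.

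The tumors were induced in male mice of C57BL/6 background by intratracheal Ad5SPC-Cre, an adenovirus in which the promoter of surfactant protein C drives Cre, so that recombination starts in cells that make this surfactant protein. KP mice formed the control group (5 libraries). For these libraries one label gives Slc2a1, which encodes the glucose transporter Glut1, as heterozygous floxed and another gives wild type. KPG1 mice carried 2 floxed copies of Slc2a1 on the same background (5 libraries). All tumors were macrodissected at 18 weeks and 6 days, cells carrying the leukocyte marker CD45 were removed with magnetic beads, and polyadenylated RNA of the remaining fraction was sequenced. The comparison of KPG1 with KP asks how this mixed CD45-negative fraction of the tumor differs when Slc2a1 is targeted as well. The labels name 10 separate tumor samples and do not say which mouse each came from, so p-values measure the spread between these samples.

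Libraries held 32427029 to 49534284 counts. Slc2a1 ranged from 71.7 to 127 CPM (counts relative to the scaled library total) in KP and from 40.8 to 66.8 CPM in KPG1, so the targeted gene followed the labels without overlap. Markers of alveolar type 2 cells were abundant in all libraries (summed level of 8 genes 18188 to 61968 CPM in KP and 47668 to 86616 CPM in KPG1), whereas 7 leukocyte markers summed to 27.7 to 60.4 CPM over all libraries. KP 1 and KP 5 lay at the 2 ends of the first principal component of all genes, which held 28.0% of the variance. The labels also number the samples. KPG1 held the numbers 1, 4, 5, 9 and 10 and KP the numbers 6, 11, 12, 15 and 16, with 6 being KP 5, so group and sample number are largely the same split, and what the number stands for is not given.

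The members lie in small groups on the genome (build mm10). Krt7 (chr15:101411043-101430313, plus strand), Krt8 (chr15:101996698-102004482, minus strand) and Krt18 (chr15:102028180-102032027, plus strand) share a chromosome, and Krt8 and Krt18 are 23.7 kb apart. Krt20 (chr11:99428403-99438150) and Krt19 (chr11:100140810-100148665) lie on the minus strand of the type I keratin chromosome, which also holds Cldn7 (chr11:69964779-69967885, plus strand). Cldn4 (chr5:134945119-134946934, minus strand) and Cldn3 (chr5:134986214-134987472, plus strand) are neighbors separated by 39.3 kb, and Cldn2 (chrX:139800828-139811386, plus strand) and Cldn18 (chr9:99689461-99717267, minus strand) stand alone. The exons of Krt7, Krt8 and Cldn3 overlap those of an RNA gene on the opposite strand by 77, 101 and 40 bases. Krt8 also has a pseudogene copy, Krt8-ps, with 98.6% identity over 941 bases, so part of its reads may have been shared with that copy and its count is uncertain to this extent.

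The neighbors Cldn4 and Cldn3 had the clearest contrast among the claudin members, and the 250 bases before their start sites are therefore shown, from RefSeq on mm10. They are the windows chr5:134946935-134947184 (minus strand) for Cldn4 and chr5:134985964-134986213 (plus strand) for Cldn3, each written in the direction of its gene. Capitals mark exact matches to the letters TGACTCA of the AP-1 motif or to GGGCGG of the GC box, which reads CCGCCC on the opposite strand.
Cldn4: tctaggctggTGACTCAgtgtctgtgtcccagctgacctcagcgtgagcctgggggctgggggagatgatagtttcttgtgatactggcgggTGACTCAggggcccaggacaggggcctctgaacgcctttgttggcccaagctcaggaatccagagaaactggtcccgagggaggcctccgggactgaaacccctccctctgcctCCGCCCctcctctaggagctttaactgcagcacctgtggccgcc
Cldn3: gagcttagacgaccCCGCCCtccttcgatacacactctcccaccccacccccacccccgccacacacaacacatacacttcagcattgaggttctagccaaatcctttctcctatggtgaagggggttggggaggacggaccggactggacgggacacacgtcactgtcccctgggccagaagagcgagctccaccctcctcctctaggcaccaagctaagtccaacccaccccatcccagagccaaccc
The Cldn4 window held TGACTCA at 240 to 234 and again at 158 to 152 bases before the start, and a GC box at 44 to 39. The Cldn3 window held no AP-1 letters and a GC box at 236 to 231. Of 32851 promoter windows of this length, 4.46% held the AP-1 letters on either strand, 0.167% held them at least 2 times, and 32.7% held a GC box. The letters TATAAA of the TATA box (12.4% of windows) were found before Krt20 and Cldn2, and AACCGGTT of the Grainyhead motif (0.116% of windows) before none of the members with a window. Such matches describe the letters only and do not show that a factor was bound.

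Krt8 and Krt18 were lower in KPG1 than in KP in every library. Krt18 had 1628, 1538, 1890, 2339 and 1515 CPM in KP 1 to KP 5 and 988, 1076, 815, 950.2 and 1005 CPM in KPG1 1 to KPG1 5. The lowest KP library thus lay above the highest KPG1 library, and KP 4 stood highest. KP averaged 1782 ± 345 CPM and KPG1 967 ± 96.3 CPM (SD, n = 5 each), so that KPG1 held 54.3% of the KP mean. In a sample of many cells, fewer cells of a type and less RNA per cell cannot be told apart. For Krt8, KP 1 to KP 5 had 1495, 1207, 1469, 1483 and 1107 CPM and KPG1 1 to KPG1 5 had 775, 957, 775, 837 and 890.4 CPM. Here too the groups did not overlap, with KP 5 and KP 2 nearest to the KPG1 range. Krt8 averaged 1352 ± 182 CPM among KP and 847 ± 78.3 CPM among KPG1 libraries (SD, n = 5 each), or 62.6% of the KP mean.

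Cldn4, a claudin of tight barriers, showed the largest relative difference among the 5 claudin members. Its levels were 413, 183, 349.8, 261.5 and 119 CPM in KP 1 to KP 5 and 68.4, 71.8, 74.5, 101 and 111 CPM in KPG1 1 to KPG1 5. KP 5 and KPG1 5 almost met, and the remaining KP libraries stood well above all of KPG1. KP averaged 265 ± 119 CPM and KPG1 85.4 ± 19.4 CPM (SD, n = 5 each), or 32.2% of the KP mean.

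**Figure D1:**
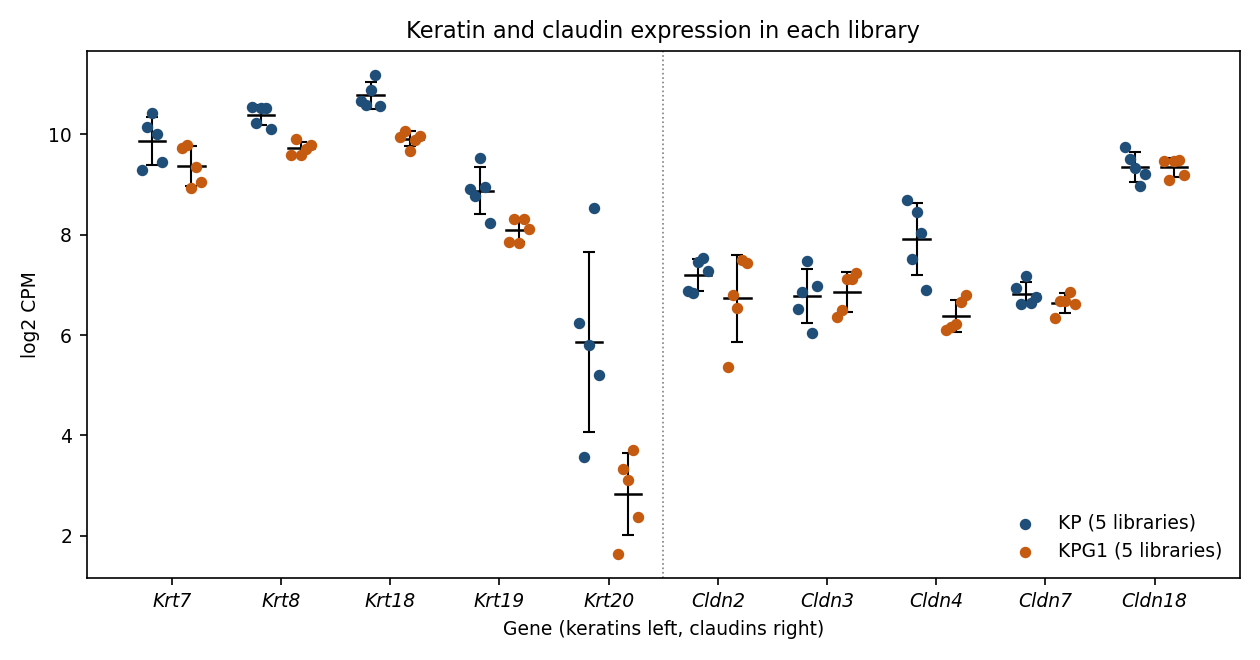
Normalized expression (log2 CPM) of the 5 keratins and 5 claudins in each of the 5 KP (blue) and 5 KPG1 (orange) libraries, with the group mean and SD in black and libraries 1 to 5 from left to right within a group. For Krt8, Krt18 and Cldn4 all KP points lie above all KPG1 points, whereas the points of Cldn3 and Cldn18 are intermixed and Krt20 in KP spreads from 3.56 to 8.53.

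In the fit across all genes with limma and voom, the log2 fold change of KPG1 against KP was -0.87 (SE 0.15) for Krt18, with a Benjamini-Hochberg adjusted p of 0.0501. It was -0.67 (SE 0.13) for Krt8 (limma adjusted p 0.0699) and -1.53 (SE 0.31) for Cldn4 (limma adjusted p 0.0773). None of the 10 members passed the threshold of 0.05 over all genes tested, where 0.111% of genes passed as lower in KPG1. The unadjusted p was under 0.05 for 5 members, all of them lower in KPG1 (Krt8, Krt18, Krt19, Krt20 and Cldn4), against 6.31% of all genes. At a limma adjusted p under 0.1, 3 members were lower in KPG1 (Krt8, Krt18 and Cldn4), against 0.487% of all genes. The edgeR quasi-likelihood test called 0 members, where 0.179% of all genes passed as lower, and DESeq2 called these same 5 members, where 2.61% did. For 3 of the 10 members (Krt8, Krt18 and Cldn4) every KPG1 library was below every KP library in log2 CPM, as was the case for 1.76% of all genes tested. For Cldn4 among these, the groups overlapped when the library totals were not scaled. The 2-sided exact permutation test of the mean log2 CPM gave p 0.00794 for each of these 3, the smallest value that 5 against 5 libraries allow. This test gave p under 0.05 for 5 members, all lower in KPG1, against 5.91% of all genes tested. The members were chosen with earlier results of these data known, so these shares describe the list and are not a test of it.

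KP 5 was the KP library nearest to KPG1 for Krt8, Krt18 and Cldn4, and the calls depended on it. Without KP 5, limma called 4 members as lower in KPG1 (Krt8, Krt18, Krt19 and Cldn4, with adjusted p from 0.0127 to 0.0325), when 1.35% of all genes passed in that direction. With a weight per library, limma called Krt8, Krt18 and Cldn4, and 1.09% of all genes passed as lower. Krt18 was called without a filter on low counts (0.118% of genes lower) and with the study's own filter (0.381%), and Krt18 and Cldn4 were called without KP 1 and KP 5 together (0.264%). With the sample number as a further term, the log2 fold changes were -0.59 for Krt8, -0.69 for Krt18 and -1.07 for Cldn4, with limma adjusted p of 0.371, 0.368 and 0.413.

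**Figure D2:**
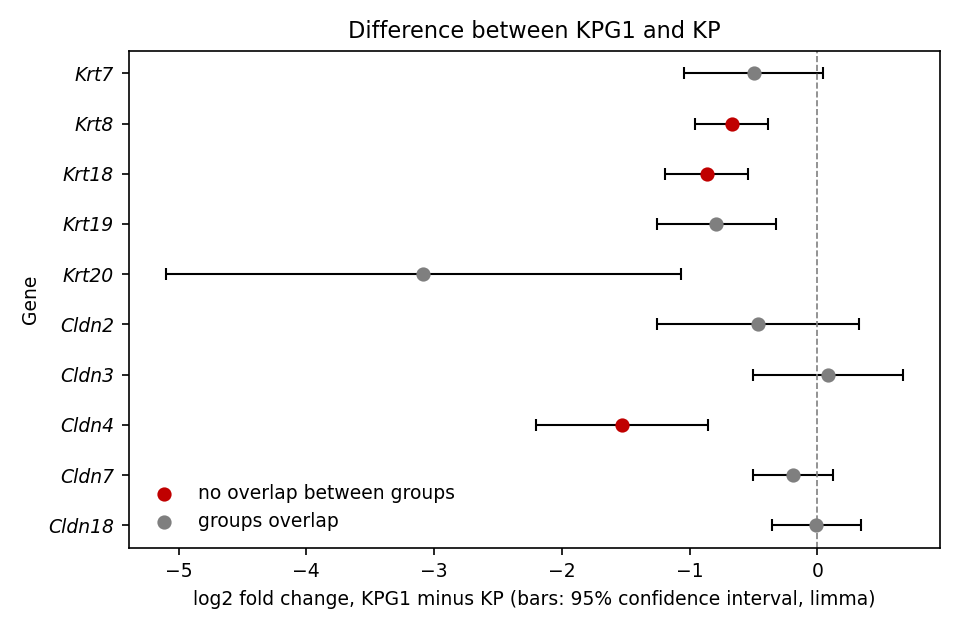
Log2 fold change of each gene in KPG1 against KP from limma, with its 95% confidence interval. Red points mark Krt8, Krt18 and Cldn4, whose groups did not overlap in log2 CPM. The interval of Krt20 is the widest, from -5.10 to -1.07, and those of Krt7, Cldn2, Cldn3, Cldn7 and Cldn18 span 0.

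Krt19 and Krt20, the other type I keratins, were lower on average in KPG1 but overlapped between the groups. Krt19, which is common in ducts and glandular tumors, had 480.1, 438, 743, 493 and 303 CPM in KP 1 to KP 5 and 233, 317.5, 227, 319.6 and 279 CPM in KPG1. The overlap came from KP 5 alone, which lay below KPG1 2 and KPG1 4. The log2 fold change was -0.79 (SE 0.21, limma adjusted p 0.199), and the exact permutation p was 0.0238.

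Krt20, a keratin of the intestinal lining that normal lung hardly makes, was the most uneven member. It had 75.1, 11.8, 56.1, 368.5 and 36.6 CPM in KP 1 to KP 5 and 3.06, 10.1, 8.56, 13.0 and 5.11 CPM in KPG1 1 to KPG1 5. KP 4 was far above the rest, KP 2 lay within the KPG1 range, and no KPG1 library exceeded 13.0 CPM. The highest KP library had 31.3 times the level of the lowest, against 4.24 times in KPG1. The log2 fold change was -3.08 (SE 0.92, limma adjusted p 0.239), and the exact permutation p was 0.0159.

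Krt7, the type II keratin of ducts and airways, had 629.9, 1132, 1382, 1031 and 697 CPM in KP 1 to KP 5 and 846, 889.8, 488, 656 and 529 CPM in KPG1. The ranges overlapped broadly, with KP 1 and KP 5 within that of KPG1. Its log2 fold change was -0.50 (95% interval -1.04 to 0.05, limma adjusted p 0.470, exact permutation p 0.119), and it was -0.84 without KP 1 and KP 5 together and -0.26 with the sample number as a term.

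The other 4 claudins did not separate the groups. Cldn18 had 855, 727, 641, 502 and 595 CPM in KP 1 to KP 5 and 709, 545.5, 711, 719 and 589 CPM in KPG1 1 to KPG1 5. KPG1 thus lay entirely within the KP range, at means of 664 ± 134 CPM for KP and 655 ± 81.4 CPM for KPG1 (SD, n = 5 each). The log2 fold change was -0.01, with a 95% interval from -0.36 to 0.34 (limma adjusted p 0.989), and its sign was not stable between settings. Cldn3 averaged 116 ± 42.4 CPM in KP and 119.7 ± 31.2 CPM in KPG1 (SD, n = 5 each), and its interval of -0.50 to 0.67 around a log2 fold change of 0.08 was wide enough to hold a difference of moderate size in either direction. Here too the sign turned in some settings.

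Cldn7, a claudin of many simple epithelia, averaged 115 ± 19.4 CPM in KP and 100.2 ± 13.1 CPM in KPG1 (SD, n = 5 each; log2 fold change -0.19, interval -0.50 to 0.13), with a log2 fold change of -0.11 without KP 3 or with a weight per library. Cldn2 forms pores for cations and water and is typical of leaky epithelia. It had 118, 114, 177, 186 and 155 CPM in KP 1 to KP 5 and 40.9, 111, 93.6, 182 and 174 CPM in KPG1 1 to KPG1 5. KPG1 1 stood below all others, while KPG1 4 and KPG1 5 were near the top of the KP range. The log2 fold change of Cldn2 was -0.47 (interval -1.26 to 0.32, exact permutation p 0.286), and it was -0.14 without KPG1 1 and -0.18 with a weight per library.

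Over the whole list, 9 of 10 members were fitted lower in KPG1. As a median, the log2 fold change was -0.58 for the 10 members, -0.79 for the 5 keratins and -0.19 for the 5 claudins, beside 0.02 for all genes tested.

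Because Cldn3 and Cldn4 are neighbors and Krt8 and Krt18 are partners, their ratios were taken within each library, where depth cancels. The log2 ratio of Cldn3 to Cldn4 counts was -2.18, -0.65, -0.97, -2 and 0.08 in KP 1 to KP 5 and 0.27, 0.33, 0.89, 0.45 and 0.43 in KPG1 1 to KPG1 5. Cldn4 had more counts than Cldn3 in 4 of 5 KP libraries, KP 5 being the exception, and fewer in all 5 KPG1 libraries. The difference of 1.62 had an exact permutation p of 0.00794 (0.0159 after Benjamini-Hochberg over the 2 ratios tested). With log2 fold changes of 0.08 for Cldn3 and -1.53 for Cldn4, this ratio mostly restates the difference in Cldn4 and is not a separate result. The log2 ratio of Krt8 to Krt18 counts averaged -0.39 ± 0.19 for KP and -0.19 ± 0.10 for KPG1 (SD, n = 5 each). This difference of 0.20 did not pass (exact permutation p 0.0952), with KP 4 lowest at -0.66 and KP 1 within the KPG1 range at -0.12.

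Levels of different genes were compared as counts per kb of exon, scaled to the same sum in each library (as in TPM). On this scale Krt18 was the highest member in all 10 libraries and Krt8 came next in all 10. Krt18 reached 4213 ± 918 in KP and 2282 ± 149.9 in KPG1 (SD, n = 5 each), and Krt8 reached 2356 ± 458 and 1470.3 ± 134. Krt19 followed in all 5 KP libraries, at 901 ± 294, and was at 504 ± 79.3 in KPG1, next to Cldn18 at 501 ± 75.7, from which it did not differ beyond their spread. Among the claudins of KP, Cldn18 at 509 ± 136 and Cldn4 at 506 ± 258 were level within their spread, whereas in KPG1 Cldn4 was at 160.2 ± 37.4, below Cldn3 at 326 ± 95.6 and near Cldn7 at 176 ± 28.6. By library, Cldn4 was at 205.3 in KP 5 and 206.1 in KPG1 5, so its groups overlapped on this scale. The share of Cldn4 in the summed level of the 5 claudins ranged from 16.4% to 38.6% among KP and from 10.5% to 14.7% among KPG1 libraries. The place of Krt7 depended on the gene model, whose exons span 7049 bases in all but 4094 in the principal transcript.

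The balance of the keratin types can be read on the same scale. The summed level of the type II chains Krt7 and Krt8 divided by that of the type I chains Krt18, Krt19 and Krt20 was 0.596, 0.592, 0.542, 0.434 and 0.537 in KP 1 to KP 5 and 0.633, 0.664, 0.669, 0.619 and 0.622 in KPG1 1 to KPG1 5. Type I transcripts were in excess in all libraries, and by these values more so in KP than in KPG1, a difference that was not tested. With principal transcript lengths the ratio was at most 0.659 in KP and at least 0.664 in KPG1, so that the groups were then barely apart. Krt18 held 75.4% to 85.3% of the type I level and Krt8 76.7% to 89.5% of the type II level over the 10 libraries.

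The members accounted for most of both gene families in these tumors. Of 51 keratin genes present, 17 were tested, and the 5 members held 96.8% of the summed keratin level in KP and 96.1% in KPG1. Of the 12 other keratins tested, 9 had a lower and 3 a higher fitted value in KPG1, 0 passed in limma and 5 had an unadjusted p under 0.05 (median log2 fold change -0.53). These 5 include Krt79, which was higher in KPG1, and 1877 of 16216 genes tested had such a p in either direction. Highest among the 12 were Krt23 (log2 fold change -0.60, limma adjusted p 0.245), Krt79 (1.61, adjusted p 0.407) and Krt80 (-0.91, adjusted p 0.166). The 34 keratin genes not tested had at most 65 counts in any library.

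For the claudins, 14 of 25 genes were tested, and the 5 members held 83.7% of the family level in KP and 84.6% in KPG1. Of the 9 other claudins tested, 5 had a lower and 4 a higher fitted value, 0 passed in limma and 1 had an unadjusted p under 0.05 (median log2 fold change -0.12). This was Cldn23, with a log2 fold change of -2.12 (limma adjusted p 0.407), larger than that of Cldn4. Cldn6, a claudin of embryonic epithelia, had the highest level of these 9, with a log2 fold change of -0.65 (limma adjusted p 0.683). It was followed by Cldn25 (-0.12, adjusted p 0.780) and Cldn12 (0.08, adjusted p 0.920).

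**Figure D3:**
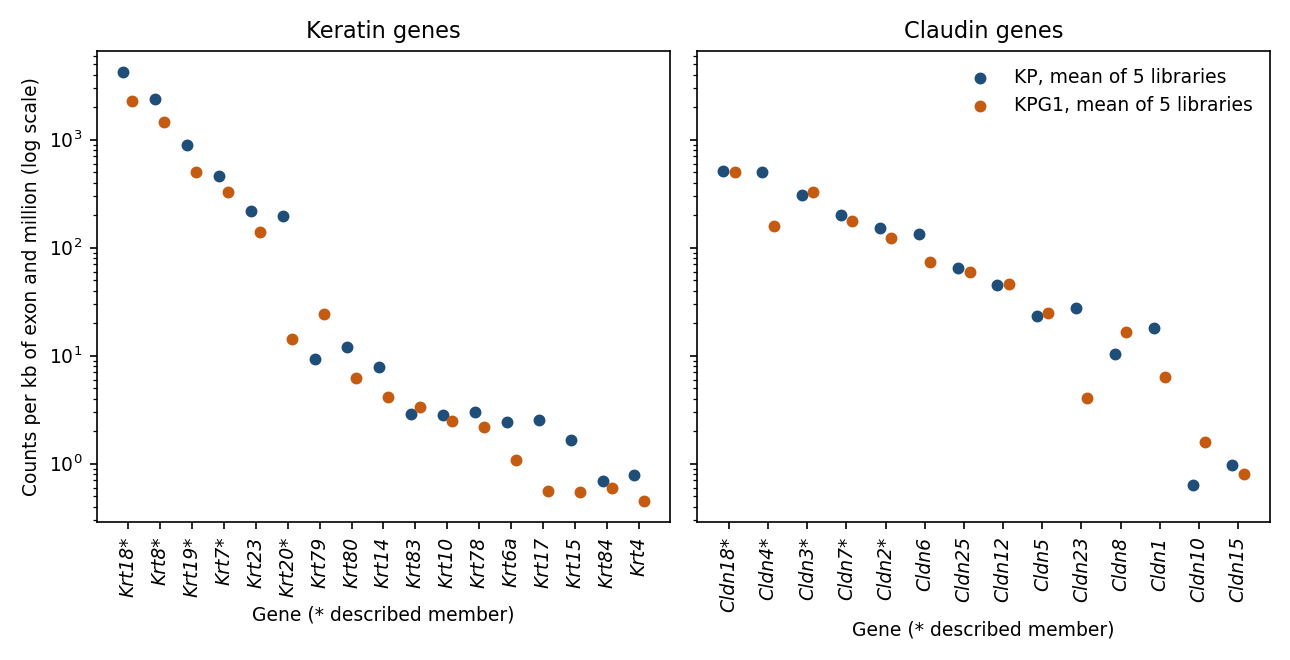
Mean level of every tested keratin and claudin gene in KP (blue) and KPG1 (orange), as length-scaled counts (as in TPM) on a log axis, ordered from high to low, with stars on the 10 members. Krt18 and Krt8 stand highest, Cldn4 is at 506 in KP and 160.2 in KPG1, and the keratins beyond Krt23 and Krt20 have means of at most 24.4.

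The spread within groups differed between members. The SD of log2 CPM within groups, pooled over both, was 0.17 for Krt8, at percentile 8.88 of all genes tested, and 0.21 for Krt18, at percentile 19.0. At the other end was Krt20 with 1.4 (percentile 97.4), followed by Cldn2 with 0.66 (percentile 80.6) and Cldn4 with 0.56 (percentile 73.7). The median over members was 0.40, beside 0.35 over all genes tested. Cldn4 had an SD of 0.72 in KP and 0.32 in KPG1, Krt19 had 0.46 and 0.24, and Krt20 had 1.80 and 0.83. The SD was lower in KPG1 for every member except Cldn2, which had 0.33 in KP and 0.87 in KPG1. In exact permutation tests of the spread (mean absolute deviation from the group median), none of the 10 members passed, with p from 0.206 for Cldn2 to 0.730 for Cldn3. With so few libraries in a group such a test can miss a difference, so equal spread is not shown.

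Across the 10 tumors, the closest relations were found among the 5 members with an unadjusted p under 0.05. Of 45 pairs, 9 had an adjusted p under 0.05 for both Pearson's r and Spearman's rho (permutation tests with 100000 resamples, Benjamini-Hochberg over the 45 pairs), and all 9 lay among Krt8, Krt18, Krt19, Krt20 and Cldn4. Krt8 and Krt18 had r 0.95 and rho 0.95 (permutation p 3e-05, adjusted p 0.00135, and 1e-04, adjusted p 0.0045), and r was 0.97 without the 2 libraries farthest from the median of Krt8. Krt8 and Cldn4 had r 0.94 and rho 0.89 (permutation p 0.00015, adjusted p 0.00225, and 0.00106, adjusted p 0.0238), with r 0.91 without the 2 farthest libraries. Since the groups did not overlap for 3 of these genes, the pooled values carry the difference between KP and KPG1, and 5 libraries in a group are too few for a test within it.

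After the group means were subtracted, which leaves only differences between tumors of a group, r was 0.70 for Krt8 with Krt18, 0.78 for Krt8 with Krt19, 0.78 for Krt8 with Cldn4 and 0.74 for Krt19 with Cldn4. For Krt18 with Cldn4 it was 0.34, down from 0.84. These are descriptions over 10 libraries, with no test. By group, r was 0.94 in KP and 0.27 in KPG1 for Krt8 with Cldn4, and 0.80 and 0.46 for Krt19 with Cldn4. For Krt8 with Krt18 it was 0.68 in KP and 0.75 in KPG1, and for Krt8 with Krt19 0.78 and 0.80. These values rest on 5 libraries each and were not tested. The 10 keratin pairs had a median r of 0.78 as measured and 0.55 after subtraction, the 10 claudin pairs 0.28 and 0.29, and the 25 pairs of a keratin with a claudin 0.38 and -0.03. Cldn18 did not follow the keratins, with r between -0.26 and -0.04 as measured and -0.68 against Krt18 after subtraction.

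**Figure D4:**
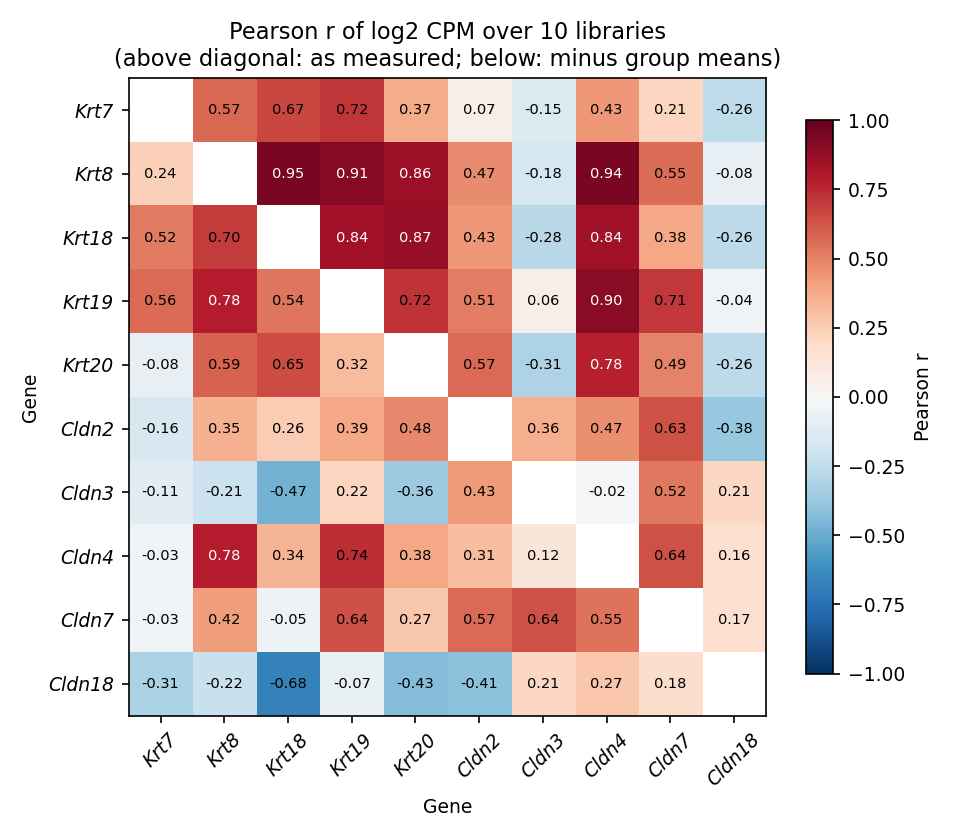
Pearson r of log2 CPM between all pairs of the 10 members over the 10 libraries, as measured above the diagonal and after subtraction of the group means below it. Krt8, Krt18, Krt19, Krt20 and Cldn4 form a block of high r above the diagonal, which is paler below it, and Cldn18 and Cldn3 stay outside this block.

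The genes most like each member were those with the highest r over the 10 libraries among the 10534 genes whose log2 CPM averaged 3 or more, and r is high here by choice. For Krt8 these were Ptk2b, Rap2b and Cxcl16 (r 0.95 to 0.96), and for Krt18 they were S100a6, Rps13 and Rps13-ps2 (r 0.95 to 0.96), the last 2 named as a gene and its pseudogene. For Cldn4 they were Plaur, Plekhg3 and Mapk6 (r 0.96 each), and for Krt19 Plaur, Pkm and Hmga1 (r 0.94 to 0.96). Plaur, the receptor of urokinase, was thus shared by Cldn4 and Krt19. Krt20 was followed by Ankrd50, Cwh43 and Styk1 (r 0.95 to 0.96) and Krt7 by Tinagl1, Aim1 and AI661453 (r 0.94 to 0.95). The claudins Cldn2 (Dync1li1, 2810459M11Rik and Ttyh2), Cldn3 (Gtpbp6, Pex5 and Csnk1g2), Cldn7 (Clip2, Fam83h and Tex264) and Cldn18 (Brf1, Rreb1 and Trappc12) had their own nearest genes, with r from 0.86 to 0.95.

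The genes of proteins that keratins and claudins attach to had medians nearer to 0. Of 16 tight junction partners, among them the membrane protein gene Ocln, 7 had a higher and 9 a lower fitted value, 0 passed in limma and 1 had an unadjusted p under 0.05 (median log2 fold change -0.05). Pard6b (-0.38, limma adjusted p 0.330) and Cgn (-0.25, adjusted p 0.457) had the smallest p. Of 11 genes that anchor or link keratin filaments, such as desmosomal plaque genes, 2 were higher and 9 lower, 0 passed and 1 had an unadjusted p under 0.05 (median -0.20). Ppl, the gene of periplakin, had -0.57 (adjusted p 0.277), and Pkp2 had -0.29 (adjusted p 0.551).

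Genes that hold and specify epithelium were divided in direction. Of 12 genes for epithelial adhesion, epithelial splicing and epithelial transcription factors, 7 were higher and 5 lower, 0 passed in limma and 1 had an unadjusted p under 0.05 (median log2 fold change 0.03). Ovol1 had -0.69 (limma adjusted p 0.342) and Ctnnd1 -0.28 (adjusted p 0.457). Epcam and Cdh1, general markers of epithelial cells, differed by 0.05 (exact permutation p 0.794) and -0.10 (exact permutation p 0.667) in mean log2 CPM. Measured relative to the mean of Epcam and Cdh1 in the same library, a scale chosen after the data were seen, Krt8, Krt18, Krt19, Krt20 and Cldn4 were each lower in KPG1 without overlap, with differences of -0.64, -0.84, -0.77, -3.01 and -1.51 (exact permutation p 0.00794 each). For Krt19 and Krt20 the groups almost met on this scale. The lowest KP and highest KPG1 values were -1.06 and -1.10 for Krt19 and -5.68 and -5.71 for Krt20. On this scale 1.54% of all genes tested were lower in KPG1 without overlap.

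The alveolar transitional state, in which Krt8 is a known marker, was followed by 7 other genes. All 7 had a lower fitted value and an unadjusted p under 0.05, against 6.31% of all genes tested, and 2 passed in limma, against 0.111% (median log2 fold change -1.08). This list was chosen with earlier results of these data known. Lgals3, the gene of galectin-3, fell by 1.10 on the log2 scale (SE 0.16, limma adjusted p 0.0304), and Areg, the gene of the growth factor amphiregulin, fell by 0.84 (SE 0.13, limma adjusted p 0.0314). Hbegf (-1.36, adjusted p 0.0659), Plaur (-1.08, adjusted p 0.0862) and Sfn (-1.38, adjusted p 0.234) did not pass.

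Markers of other cells are given because the fraction sequenced is not pure. All 8 alveolar type 2 markers were fitted higher in KPG1, with 0 passing in limma and 3 at an unadjusted p under 0.05 (median log2 fold change 0.77), among them Sftpc (1.22, limma adjusted p 0.272) and Abca3 (0.97, adjusted p 0.332). KP 1 and KP 4, at 18190 and 27810 CPM, had the lowest sums of these markers. For alveolar type 1 markers 5 of 8 were higher and 3 lower, with sums of 1816 to 5036 CPM in KP and 2514 to 4082 CPM in KPG1, and Emp2 (-0.44) and Rtkn2 (0.86) had the smallest p. For club cell markers 3 of 6 were higher, with sums of 91.6 to 250.1 CPM in KP and 183 to 433 CPM in KPG1 (Cyp2f2 2.11, Aldh1a1 -0.49). Ciliated cell markers summed to 20.7 to 45.03 CPM in KP and 20.1 to 44.5 CPM in KPG1, with 2 of 6 higher (Tmem212 -1.45, Foxj1 -1.19).

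Basal and mesothelial cells also make keratins and claudins. Basal cell markers summed to 7.10 to 42.7 CPM in KP and 7.95 to 18.5 CPM in KPG1, and of 4 tested 3 were lower (Krt15 -2.21, Aqp3 -0.38). Their defining genes were near the floor, with Trp63 at most at 42 and Krt5 at most at 30 counts in a library. Mesothelial markers summed to 106 to 326 CPM in KP and 94.2 to 243 CPM in KPG1, all 3 tested were lower (Msln -0.63, Upk3b -1.07), and Muc16 had at most 2 counts. In KPG1 the mesothelial sum was above the level of Krt20 in all 5 libraries and above that of Cldn4 in 4 of 5, and over all 10 libraries it was below those of Krt8 and Krt18. These levels are not scaled by gene length. The KPG1 sum was mostly Msln, with at least 3630 counts in a library, against at most 149 for Upk3b and 373 for Upk1b.

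Endothelial markers were higher in 6 of 6 (282.8 to 933 CPM in KP and 425 to 1363 CPM in KPG1; Kdr 0.56, Cdh5 0.36) and fibroblast markers in 6 of 6 (93.8 to 253 CPM and 159 to 269 CPM; Dcn 0.75, Col1a2 0.54). Leukocyte markers were higher in 3 of 6 (38.7 to 60.4 CPM and 27.7 to 52.0 CPM; Itgam -1.04, Csf1r -0.49). None of the markers of these 9 cell types passed in limma, and their part in the differences of the keratins and claudins was not tested.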

How the data were processed

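RNA sequencing of 10 CD45-negative lung tumor fractions, 5 KP and 5 KPG1, was analyzed. Per the labels and the study's methods, a stranded polyadenylated RNA kit and single-end reads were used. The submitters' processing notes name cutadapt 1.4.2, HISAT2, featureCounts 1.4.4, edgeR and the build mm10. The strand setting and annotation release of the counting are not given in the sources used here. The deposited counts are raw reads per Ensembl gene, and all 390170 values of the joint table equaled those of the single tables. The deposited log2 table, which the authors made with TMM and voom, was not used. The engineered alleles that start the tumors are not reported here.

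The members and gene lists were chosen with earlier results of these data known. Genes were kept by filterByExpr, scaled by TMM (edgeR 4.0.16) and tested with voom and limma 3.58.1 in R 4.3.3 with group as the only term, with Benjamini-Hochberg adjustment over 16216 genes and a threshold of 0.05. CPM and log2 CPM use TMM library sizes, log2 CPM with a prior count of 2. Exact permutation tests (2-sided) used all rearrangements of 5 against 5 libraries, or of 5 against 4 with a library left out. The test of Krt8 was checked against SciPy 1.17.1. Reads carried no molecular identifiers. Lengths and positions came from the GENCODE annotation of mm10, promoters from RefSeq, and copies were searched with blastn 2.17.0 at 95% identity or more. Named were all members, the 3 highest other genes of each family, the 2 genes of each list with the smallest p, genes of these lists and families past the threshold, and the 3 genes most correlated with each member. Ocln, Krt5, Trp63, Muc16, Upk1b, Hbegf, Plaur, Sfn and Cldn23 are named as list or family examples outside this rule, chosen after values were seen. Alternatives were edgeR's quasi-likelihood test, DESeq2 1.42.0, other scalings, filters and weights, left-out libraries, the replicate number and the sample number. The fits were tested on simulated data.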

Additional observations from a re-analysis of the deposited data

Results flagged for a closer look

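In each group of 5 libraries, the gap between the most extreme library and its nearest neighbor was divided by the range of the group, for 50 combinations of a member, ratio or list with a group. A share above 0.71 was exceeded in 3 of them, where chance gives about 1 in 20 groups, or 2.5. For the log2 ratio of Cldn3 to Cldn4 in KPG1, KPG1 3 was highest at 0.894, with the others between 0.265 and 0.446 (share 0.712). For the summed level of the keratin anchors and linkers in KP, KP 1 was highest at 11.12 on the log2 scale, with the others between 10.719 and 10.8 (share 0.797). For the club cell markers in KP, KP 5 was lowest at 6.533 on the log2 scale, with the others between 7.606 and 7.972 (share 0.745). On log2 CPM, none of the 10 members had a library far from its group by this measure.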

How the results depend on the processing

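The count of members called by limma was 0, and it was 5 with DESeq2, 3 with a weight per library (Krt8, Krt18 and Cldn4), 1 without a filter on low counts (Krt18), 1 with the study's filter on a mean length-scaled level of 20 (Krt18) and 2 without KP 1 and KP 5 together (Krt18 and Cldn4). Leaving out 1 library gave 0 to 4, above 0 only without KP 5. It stayed 0 with the edgeR quasi-likelihood test, with RLE factors, with the sample number as a term and with the replicate number as a block. The block is not a pairing from the design: same-numbered libraries had correlations of deviations of -0.16 to 0.08, and 1 of 10 libraries correlated best with its own number. With the block 9 members kept a lower fitted value. All called members in these settings were lower in KPG1.

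Of the 10 members, the direction turned in the settings run only for Cldn18 and Cldn3. The limma log2 fold change of Cldn18 was 0.0625 without KP 1 and KP 5 together and 0.006002 without a filter, and without 1 library it lay between -0.106 (without KP 4) and 0.0893 (without KP 1), above 0 also without KP 2, KPG1 2 or KPG1 5. Its difference in mean log2 CPM was 0.00398 without TMM factors, 0.0188 relative to Epcam and Cdh1, and at most 0.0911 without 1 library (KP 1). The limma log2 fold change of Cldn3 was -0.000597 with the sample number and lay between -0.104 (without KP 4) and 0.252 (without KP 3) without 1 library, below 0 also without KPG1 5, and its difference in mean log2 CPM lay between -0.101 and 0.261 without these same libraries. The exact test counted 5 members under 0.05 in every setting run. Without TMM factors its p was 0.0159 for Cldn4, whose groups then overlapped. Leaving out 1 library moved the difference in the log2 ratio of Krt8 to Krt18 between 0.13 and 0.27 (exact permutation p 0.0238 without KP 1 and 0.0397 without KPG1 1). That of Cldn3 to Cldn4 then lay between 1.36 and 1.92. The exact test of the spread had p under 0.05 for 0 to 1 members (1 without KPG1 2). The causes were not tested. With 5 libraries a group, differences within the intervals given for Cldn3, Cldn18, Cldn7, Cldn2 and Krt7 could not be resolved. The lowest count of a member in any library was 140.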
